A study of Homo sapiens with 3 samples.

Results

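The Wnt pathway genes described here are 52 of the 24424 genes in the count table: the 19 rows for WNT ligands, the 10 rows for frizzled receptors, and 23 further genes chosen by name. The 23 are co-receptors (LRP5, LRP6, ROR1, ROR2, RYK), secreted antagonists (DKK1, DKK3, SFRP1), cytoplasmic components (CTNNB1, APC, AXIN1, DVL1, DVL2, DVL3), TCF/LEF transcription factors (LEF1, TCF7, TCF7L1, TCF7L2) and feedback inhibitors (AXIN2, NKD1, NKD2, RNF43, ZNRF3). Members were taken by gene symbol, by a rule that uses no measured value. The rule itself was chosen with earlier results of these data known. Messenger RNA was sequenced from 3 populations of A375SM, a metastatic subline of the human A375 melanoma cells, with 1 library each. Cells were infected with a lentivirus that carries a green fluorescent reporter and a short hairpin against PRAME (shPRAME), a short hairpin against BAP1 (shBAP1) or the control construct (shEmpty), and reporter-positive cells were kept as stable populations. The control is called empty in its name and non-targeting in the design text, and its genotype is given as wild type. All 3 populations carry the vector and the reporter. Each target was lowered with 1 named hairpin construct in 1 population, and what a hairpin does elsewhere in the transcriptome cannot be told apart from the loss of its target.

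Wnt proteins are secreted lipid-modified ligands that bind frizzled receptors. With the co-receptors LRP5 or LRP6, a bound frizzled recruits dishevelled (DVL) and blocks the complex of APC, axin and kinases that marks beta-catenin (CTNNB1) for destruction; beta-catenin then enters the nucleus and activates genes through TCF/LEF factors. Other ligands, WNT5A foremost, act mainly without beta-catenin through ROR and RYK receptors on cell polarity and calcium. In melanoma, WNT5A is known for its link to invasive behaviour, and beta-catenin signalling for its part in pigment-cell identity through MITF.

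The libraries held 18456328 counts (shPRAME), 14181829 counts (shBAP1) and 19430130 counts (shEmpty). Levels are given as counts and as CPM, the TMM-scaled counts relative to library size, and the exact 95% intervals cover counting error only. A 0 was set to 3 counts in a ratio, or 0.164 CPM in shPRAME, 0.202 CPM in shBAP1 and 0.160 CPM in shEmpty. The exact interval of a count of 0 reaches 0.202 CPM in shPRAME, 0.248 CPM in shBAP1 and 0.197 CPM in shEmpty. There is 1 library a group, so differences have no replicate check and p-values were not computed. A gene with a mean count of at least 50 over the 3 libraries is called measured, and it is called higher or lower where its ratio reached 2-fold with an interval that did not include 1. The calls describe 3 libraries and are no test of the conditions. Of the 52 members, 30 were measured, and 27 of these had at least 50 counts in each library. WNT16, FZD9 and NKD1 were the exceptions, so each of these was measured although at least 1 library was low. WNT16 reached the minimum only through shPRAME (170 counts), and NKD1 only through shEmpty (108 counts). Their calls are therefore not independent of the count minimum.

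The target transcripts were lowest in the matching library. PRAME was at 108 CPM in shPRAME, 455 CPM in shBAP1 and 327 CPM in shEmpty, and BAP1 at 97.9 CPM, 35.2 CPM and 100.0 CPM in that order. Melanocyte lineage markers were partly present. SOX10 had 12019 counts in shPRAME, 5442 in shBAP1 and 9482 in shEmpty, while MLANA had 7, 19 and 3. The pigment enzyme genes were far higher in shBAP1: TYR had 0 counts in shPRAME, 573 in shBAP1 and 4 in shEmpty, TYRP1 had 1, 1037 and 0, and DCT had 6, 1668 and 192. S100B (790, 2768 and 1356 counts) was also highest in shBAP1, while S100A1 (7406, 1833 and 3664) was highest in shPRAME. The 12 lineage markers summed to 1660 CPM in shPRAME (10 with a count), 1487 CPM in shBAP1 (12) and 1451 CPM in shEmpty (11). Of the lists of other cell types, the fibroblast markers summed to 806 CPM in shPRAME, 275 CPM in shBAP1 and 73.4 CPM in shEmpty. Most of that sum was COL1A2 in shPRAME and shBAP1 (12250 and 2529 counts, against 119 in shEmpty), and 8 or 9 of the 9 markers had a count in each library. FAP (1188, 878 and 535 counts) was 2.28-fold higher in shPRAME and 2.07-fold in shBAP1, PDGFRB (355, 53 and 73) 4.98-fold higher in shPRAME, and PDGFRA (447, 33 and 263) 6.31-fold lower in shBAP1. LUM (399, 483 and 364) was called in neither, and COL1A1 (23, 3 and 1), COL3A1 (13, 66 and 1), DCN (49, 40 and 20) and THY1 (4, 3 and 0) were below the count minimum. Keratinocyte markers summed to 27.6, 53.7 and 34.5 CPM (5, 3 and 5 of 7 with a count), nearly all from KRT10 (494, 789 and 632 counts), with KRT1 at 0. Endothelial markers summed to 51.1, 12.7 and 79.3 CPM (3, 5 and 4 of 6) with CDH5 at 0. Most of that came from KDR (572, 170 and 1476 counts), lower by 2.52-fold in shPRAME and 6.88-fold in shBAP1, and from TIE1 (359, 11 and 3), 123-fold higher in shPRAME. Immune markers summed to 150.3, 65.5 and 51.7 CPM (6, 5 and 5 of 7) with CD3E at 0, mostly from CD68 (2639, 916 and 919 counts), which was 2.94-fold higher in shPRAME. The part of these markers in the results was not tested. Fewer cells with a transcript and less of it per cell cannot be told apart.

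In the shPRAME library, 3 of the 4 TCF/LEF genes, the co-receptor LRP5, the antagonist SFRP1 and the ligand WNT16 were higher than in shEmpty. The receptors FZD4, FZD8 and ROR1, the ligand WNT10B and the feedback inhibitor NKD1 were lower. The 6 higher and 5 lower genes made up 36.7% of the 30 measured members. Over all 11956 measured genes the rule called 19.3%, of which 10.2% of the genes were higher and 9.08% lower. The median log2 ratio was 0.06 over the measured members and -0.06 over all measured genes. Of the called members, WNT16 and NKD1 had under 50 counts in at least 1 library, and the others had at least 50 in each.

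In the shBAP1 library, the main ligand WNT5A, 5 frizzled genes and LEF1 were lower than in shEmpty. WNT10B, ROR1 and SFRP1 were lower too, and APC and DKK3 were higher. The 10 lower members were 33.3% of those measured, where 8.56% of all measured genes were lower. The 2 higher members were 6.67%, where 5.53% of all measured genes were higher, a share near that background, and in either direction the rule called 14.1% of all genes. The median log2 ratio was -0.33 over the measured members and -0.03 over all measured genes. Of the called members, FZD9 had under 50 counts in shBAP1, and the others had at least 50 in each library. The comparisons with shEmpty share that library, so what they have in common includes anything particular to it.

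**Figure D1:**
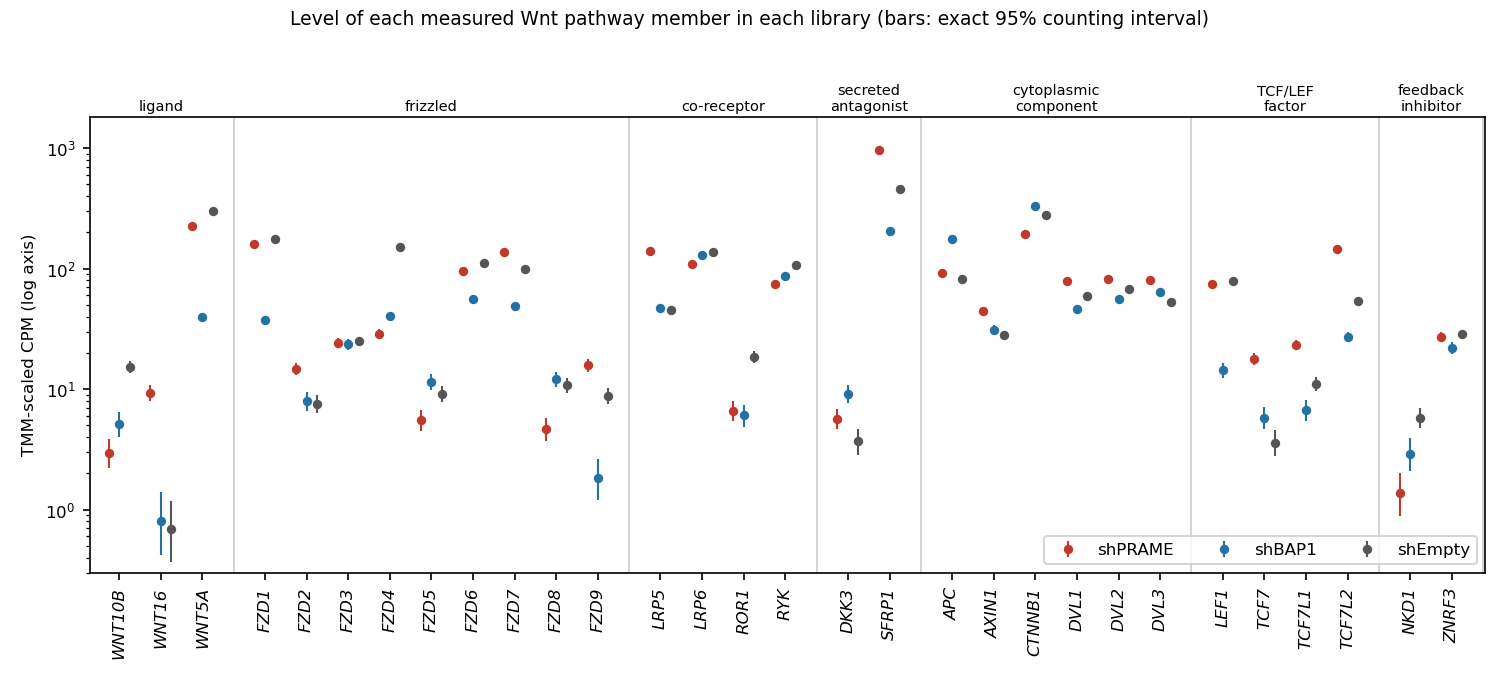
TMM-scaled CPM (log axis) of the 30 measured members in the shPRAME, shBAP1 and shEmpty libraries, grouped by role; each point is 1 library and bars are exact 95% counting intervals. WNT5A (227, 39.7 and 300.1 CPM), FZD1 (159, 37.2 and 175 CPM) and LEF1 (74.3, 14.3 and 79.1 CPM) are lowest in shBAP1, and SFRP1 (965, 206 and 457 CPM) is the most abundant member by CPM in shPRAME and shEmpty.

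**Figure D2:**
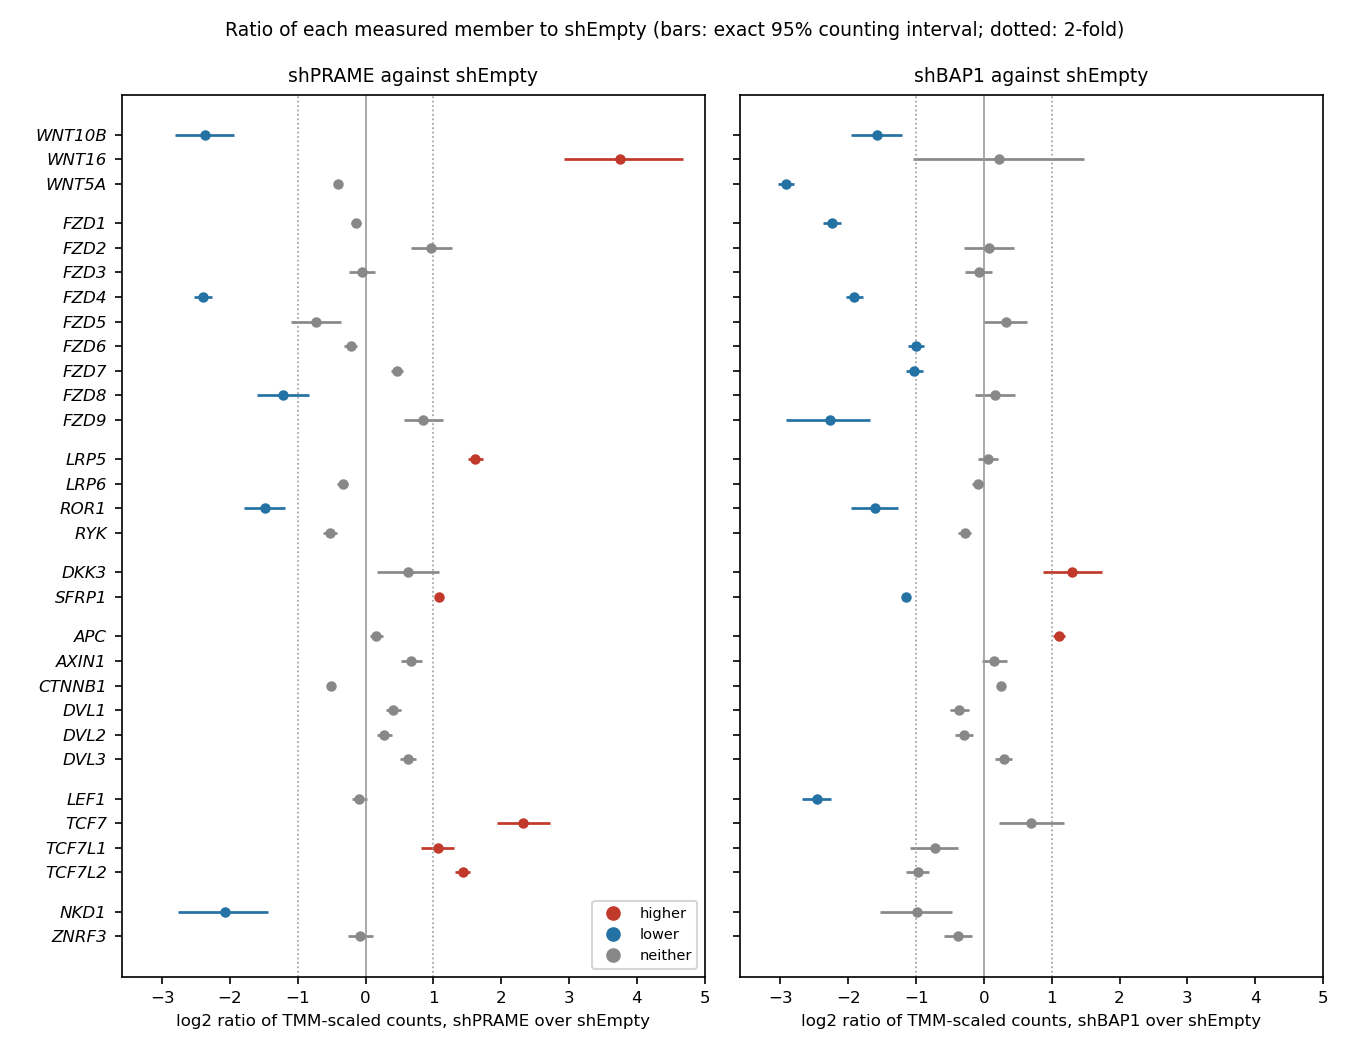
Log2 ratio to shEmpty of each measured member in shPRAME (left) and shBAP1 (right), with exact 95% counting intervals and dotted lines at 2-fold. 6 members were called higher and 5 lower in shPRAME, against 2 and 10 in shBAP1, and the intervals of the called FZD8 and TCF7L1 in shPRAME and FZD6, FZD7 and DKK3 in shBAP1 cross the 2-fold line.

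Start regions are shown for WNT5A, FZD1 and LEF1, which were lower together in shBAP1, and for DKK1, the only member whose window held a TCF/LEF motif. The 250 bases before each annotated start follow, 5' to 3' on the gene's strand, from RefSeq on GRCh38.p14, a newer build than that named for the files. WNT5A has a pair of annotated starts on chromosome 3, minus strand, with windows at chr3:55487307-55487556 (upstream start) and chr3:55481399-55481648 (downstream start). The FZD1 window is chr7:91264183-91264432 on the plus strand, the LEF1 window chr4:108166302-108166551 on the minus strand, and the DKK1 window chr10:52314031-52314280 on the plus strand. Capitals mark the motif.
WNT5A upstream start: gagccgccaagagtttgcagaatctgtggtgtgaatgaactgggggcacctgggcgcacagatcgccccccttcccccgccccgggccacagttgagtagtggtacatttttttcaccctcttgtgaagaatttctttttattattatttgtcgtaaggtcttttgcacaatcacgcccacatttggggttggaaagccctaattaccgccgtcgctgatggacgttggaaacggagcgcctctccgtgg
WNT5A downstream start: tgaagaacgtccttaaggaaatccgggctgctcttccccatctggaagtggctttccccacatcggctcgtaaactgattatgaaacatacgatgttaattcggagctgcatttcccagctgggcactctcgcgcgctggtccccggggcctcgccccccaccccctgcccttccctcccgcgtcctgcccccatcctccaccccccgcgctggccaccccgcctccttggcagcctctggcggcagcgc
FZD1: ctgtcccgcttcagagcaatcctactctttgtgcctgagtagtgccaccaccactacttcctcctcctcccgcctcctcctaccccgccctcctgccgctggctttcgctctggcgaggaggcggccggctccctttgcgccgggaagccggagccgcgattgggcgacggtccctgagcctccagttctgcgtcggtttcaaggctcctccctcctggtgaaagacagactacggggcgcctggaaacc
LEF1: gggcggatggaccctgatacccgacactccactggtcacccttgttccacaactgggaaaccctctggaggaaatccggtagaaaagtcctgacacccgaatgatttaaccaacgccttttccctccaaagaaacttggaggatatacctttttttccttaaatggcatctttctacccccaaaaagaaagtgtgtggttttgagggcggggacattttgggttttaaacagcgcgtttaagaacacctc
DKK1: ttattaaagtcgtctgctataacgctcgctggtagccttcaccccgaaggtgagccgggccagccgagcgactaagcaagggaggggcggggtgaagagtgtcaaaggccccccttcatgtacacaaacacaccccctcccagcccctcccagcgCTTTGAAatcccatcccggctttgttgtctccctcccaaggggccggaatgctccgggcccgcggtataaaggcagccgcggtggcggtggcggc
The motif letters searched were CTTTGAT and CTTTGAA on both strands, which differ in their last letter and can overlap on opposite strands, in windows of 300 bases that run from 250 before to 50 after the start. RefSeq windows matched 38 of the 52 members by symbol, with 46 windows in all. 1 of the 46 (2.17%) held a motif, beside 2409 of the 35116 windows of all genes (6.86%). The match is CTTTGAA in DKK1, whose first base lies 95 bases before the start. The member windows had a median GC content of 69.3%, and those of all genes 58.7%; the LEF1 window was at 47.0%, below both. A match describes letters only, and the absence of one says nothing about binding.

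Among the ligands, WNT5A was the main transcript in each library, and its level was far lower in shBAP1. It had 4154 counts in shPRAME (227 CPM), 590 in shBAP1 (39.7 CPM) and 5623 in shEmpty (300.1 CPM). shBAP1 thus stands apart from the other two libraries. The ratio was 7.55-fold lower in shBAP1 than in shEmpty (6.94 to 8.23), the largest change of a measured member in that comparison. In shPRAME the ratio to shEmpty was 0.757 (0.727 to 0.788), within the 2-fold limit. WNT10B, a ligand that signals through beta-catenin, had 54 counts in shPRAME (2.95 CPM), 76 in shBAP1 (5.12 CPM) and 285 in shEmpty (15.2 CPM). It was 5.15-fold lower in shPRAME (3.84 to 7.02) and 2.97-fold lower in shBAP1 (2.30 to 3.88). WNT16, known for its part in bone maintenance, was abundant in 1 library: it had 170 counts in shPRAME (9.30 CPM), 12 in shBAP1 (0.808 CPM) and 13 in shEmpty (0.694 CPM). It was 13.4-fold higher in shPRAME (7.63 to 25.7), while the shBAP1 ratio of 1.17 (0.486 to 2.77) could not be told from no change at this depth.

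The other 16 ligands were below the count minimum. WNT5B, the close paralog of WNT5A, had 30 counts in shPRAME, 8 in shBAP1 and 67 in shEmpty, the same order of libraries as WNT5A. WNT9A had 79, 0 and 6 counts, WNT3 58, 23 and 16, and WNT2B 53, 20 and 19, so these 3 ligands had their highest count in shPRAME. The WNT9A count in shPRAME was 13.5 times that in shEmpty after scaling (5.93 to 37.9), and at least 16.99-fold that in shBAP1, where none was counted (the lower limit of the interval; the ratio is 21.4 with the 0 set to 3 counts). Exons of WNT2B overlap those of ST7L on the opposite strand (175, 127 and 166 counts), and use of strand in counting is not stated. The remaining 12 (WNT1, WNT2, WNT3A, WNT4, WNT6, WNT7A, WNT7B, WNT8A, WNT8B, WNT9B, WNT10A, WNT11) had under 30 counts in every library, and 5 of them (WNT2, WNT3A, WNT7A, WNT8A, WNT9B) had none. Summed over the 19 ligands, counts were 4620 in shPRAME (253 CPM), 747 in shBAP1 (50.3 CPM) and 6049 in shEmpty (323 CPM). The ligand sum was 6.42-fold lower in shBAP1 than in shEmpty (5.95 to 6.93). Per kilobase of exon, WNT5A made up 82.7% of the ligand level in shPRAME, 62.6% in shBAP1 and 83.8% in shEmpty. WNT16 took the next place in shPRAME with 6.59%, and WNT10B in shBAP1 with 22.5% and in shEmpty with 11.9%.

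The frizzled genes encode the seven-pass receptors, and 9 of the 10 were measured. FZD10 had 0, 0 and 1 counts. In shBAP1 5 of the 9 were lower and none higher than in shEmpty, where 8.56% of all measured genes were lower. In shPRAME 2 were lower and none higher, where 9.08% of all genes were lower. FZD1 had 2903 counts in shPRAME (159 CPM), 553 in shBAP1 (37.2 CPM) and 3287 in shEmpty (175 CPM). It was 4.71-fold lower in shBAP1 (4.30 to 5.16), with a ratio of 0.905 (0.861 to 0.952) in shPRAME. FZD9 had 288 counts in shPRAME (15.8 CPM), 27 in shBAP1 (1.82 CPM) and 164 in shEmpty (8.75 CPM). It was thus at opposite ends in the knockdown libraries, 4.81-fold lower in shBAP1 (3.19 to 7.52) and at a ratio of 1.80 (1.48 to 2.19) in shPRAME. FZD6 had 1746 counts in shPRAME (95.5 CPM), 823 in shBAP1 (55.4 CPM) and 2087 in shEmpty (111 CPM), and was 2.01-fold lower in shBAP1 (1.85 to 2.18). FZD7 had 2510 counts in shPRAME (137 CPM), 724 in shBAP1 (48.8 CPM) and 1863 in shEmpty (99.4 CPM), and was 2.04-fold lower in shBAP1 (1.87 to 2.22). Both lay at the limit, and both calls ended under total-count and upper-quartile scaling and with the whole interval beyond 2-fold; that of FZD6 also ended with a pseudocount of 1 CPM.

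FZD4, the receptor of the retinal vessel ligand norrin, was lower in both knockdown libraries. It had 528 counts in shPRAME (28.9 CPM), 603 in shBAP1 (40.6 CPM) and 2858 in shEmpty (153 CPM). It was 5.28-fold lower in shPRAME (4.81 to 5.81) and 3.76-fold lower in shBAP1 (3.44 to 4.11). Exons of PRSS23 overlap FZD4 on the opposite strand. PRSS23 had 7010 counts in shPRAME, 4309 in shBAP1 and 11857 in shEmpty, so it was also lowest in the knockdown libraries, by 1.65-fold in shPRAME (1.60 to 1.70) and 2.18-fold in shBAP1 (2.10 to 2.26). Its part in the FZD4 counts was not tested. FZD8 was low in 1 library: it had 85 counts in shPRAME (4.65 CPM), 179 in shBAP1 (12.1 CPM) and 202 in shEmpty (10.8 CPM), and was 2.32-fold lower in shPRAME (1.79 to 3.02), a call that ends if the whole interval must lie beyond 2-fold. FZD2 had 269 counts in shPRAME (14.7 CPM), 118 in shBAP1 (7.95 CPM) and 141 in shEmpty (7.53 CPM), a ratio of 1.96 in shPRAME (1.59 to 2.41) that passed the limit under total-count and upper-quartile scaling. FZD5 had 101 counts in shPRAME (5.52 CPM), 170 in shBAP1 (11.5 CPM) and 172 in shEmpty (9.18 CPM), with a ratio of 0.602 in shPRAME (0.466 to 0.774). FZD3 was even, with 440 counts in shPRAME (24.1 CPM), 350 in shBAP1 (23.6 CPM) and 466 in shEmpty (24.9 CPM), and ratios of 0.968 in shPRAME and 0.948 in shBAP1, whose direction changed with the scaling.

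The summed frizzled counts were 8870 in shPRAME (485 CPM), 3547 in shBAP1 (239 CPM) and 11241 in shEmpty (599.9 CPM), so the sum was 2.51-fold lower in shBAP1 (2.42 to 2.61). Per kilobase of exon, FZD7 led in shPRAME with 34.2% of the family level, followed by FZD6 (23.4%) and FZD1 (21.9%). In shBAP1 FZD6 led with 29.1%, ahead of FZD7 with 26.0%, FZD4 with 11.3% and FZD1 with 11.0%. In shEmpty FZD6 (25.1%), FZD7 (22.8%), FZD1 (22.3%) and FZD4 (18.3%) were close together. Close paralogs in the family can share reads, so these shares are approximate.

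**Figure D3:**
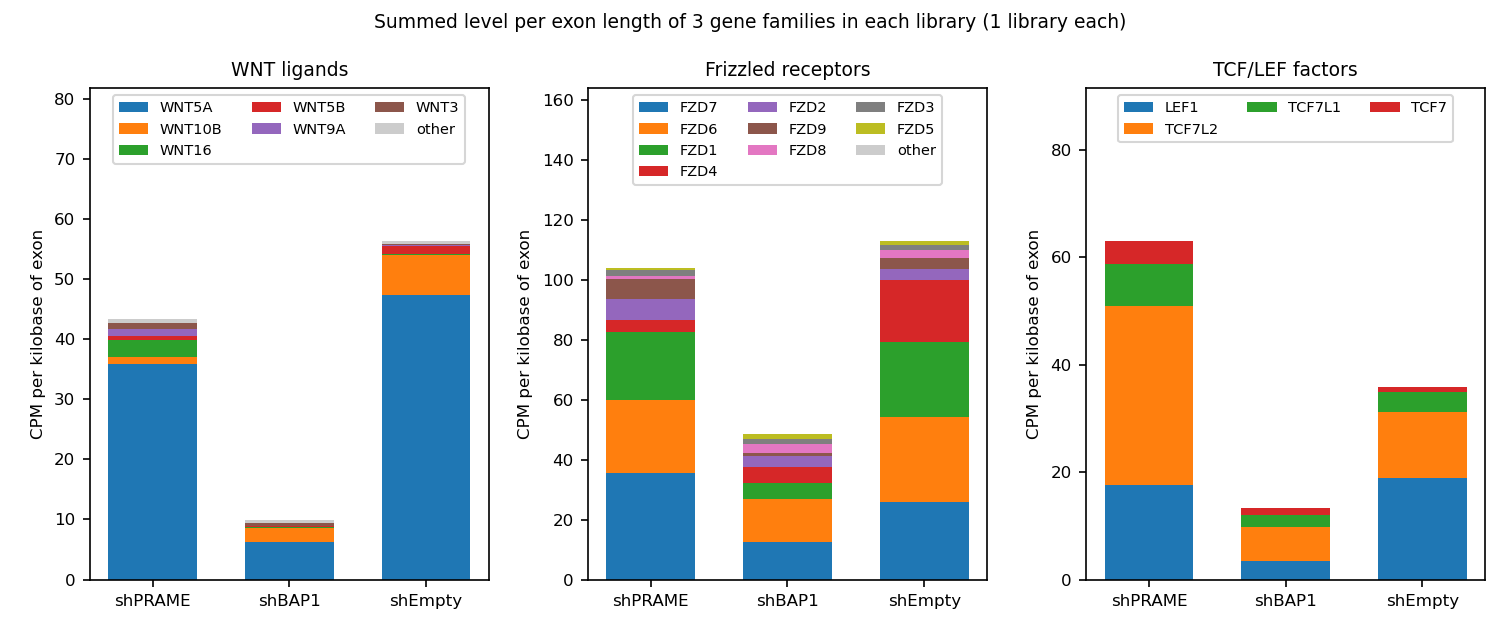
Stacked level per kilobase of exon of the WNT ligands, frizzled receptors and TCF/LEF factors in shPRAME, shBAP1 and shEmpty, with 1 library per bar. The ligand bar is mostly WNT5A (82.7%, 62.6% and 83.8%), and LEF1 is 28.1% of the TCF/LEF bar in shPRAME, 25.6% in shBAP1 and 52.7% in shEmpty.

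The co-receptors for the beta-catenin branch differed in shPRAME, where LRP5 was higher and LRP6 was not called. LRP5 had 2545 counts in shPRAME (139 CPM), 702 in shBAP1 (47.3 CPM) and 851 in shEmpty (45.4 CPM). It was 3.06-fold higher in shPRAME (2.83 to 3.32), and its ratio in shBAP1 was 1.04 (0.941 to 1.15). LRP6, which serves the same step, had 1987 counts in shPRAME (109 CPM), 1923 in shBAP1 (129.5 CPM) and 2576 in shEmpty (137 CPM), with ratios of 0.790 in shPRAME (0.745 to 0.838) and 0.942 in shBAP1 (0.888 to 1.00); the shBAP1 direction changed under total-count scaling. Per kilobase of exon LRP5 exceeded LRP6 in shPRAME (27.0 against 10.8 CPM per kilobase). It was below LRP6 in shBAP1 (9.17 against 12.9) and in shEmpty (8.80 against 13.7). Among the receptors of the WNT5A branch, ROR1 had 121 counts in shPRAME (6.62 CPM), 90 in shBAP1 (6.06 CPM) and 347 in shEmpty (18.5 CPM). Both knockdown libraries were below shEmpty, 2.80-fold in shPRAME (2.27 to 3.47) and 3.05-fold in shBAP1 (2.42 to 3.90). ROR2 had 1, 0 and 7 counts. RYK had 1358 counts in shPRAME (74.3 CPM), 1301 in shBAP1 (87.6 CPM) and 2000 in shEmpty (107 CPM), with ratios of 0.696 in shPRAME (0.649 to 0.746) and 0.821 in shBAP1 (0.765 to 0.881), neither past the limit.

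Of the secreted antagonists, SFRP1, which binds Wnt proteins and frizzleds, went opposite ways in the knockdown libraries. It had 17643 counts in shPRAME (965 CPM), 3056 in shBAP1 (206 CPM) and 8559 in shEmpty (457 CPM). It was 2.11-fold higher in shPRAME (2.06 to 2.17) and 2.22-fold lower in shBAP1 (2.13 to 2.31). DKK1, which binds LRP5 and LRP6 and keeps them from Wnt, was below the count minimum, with 10 counts in shPRAME, 71 in shBAP1 and 7 in shEmpty. Its count was high in shBAP1 alone, at 12.8 times shEmpty after scaling (5.90 to 33.0). Exons of PRKG1-AS1 overlap DKK1 on the opposite strand. PRKG1-AS1 had 43, 13 and 19 counts in the same order of libraries, and its part in the DKK1 counts was not tested. DKK3, a dickkopf relative that does not act on LRP6 in the same way, had 104 counts in shPRAME (5.69 CPM), 135 in shBAP1 (9.09 CPM) and 69 in shEmpty (3.68 CPM). It was 2.47-fold higher in shBAP1 (1.83 to 3.35), a call that likewise ends with the whole interval beyond 2-fold, with a ratio of 1.54 in shPRAME (1.13 to 2.13).

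Of the 6 cytoplasmic components none was called in shPRAME, where 19.3% of all measured genes were. In shBAP1 1 was called (16.7%, near the 14.1% of all measured genes). CTNNB1, which encodes beta-catenin, had 3574 counts in shPRAME (195 CPM), 4908 in shBAP1 (331 CPM) and 5215 in shEmpty (278 CPM). Its ratio was 0.702 in shPRAME (0.673 to 0.733) and 1.19 in shBAP1 (1.14 to 1.24). APC, the scaffold of the destruction complex and a tumour suppressor, had 1677 counts in shPRAME (91.7 CPM), 2631 in shBAP1 (177 CPM) and 1539 in shEmpty (82.1 CPM). It was 2.16-fold higher in shBAP1 (2.03 to 2.30), with a ratio of 1.12 in shPRAME (1.04 to 1.20). AXIN1, the limiting scaffold, had 819 counts in shPRAME (44.8 CPM), 463 in shBAP1 (31.2 CPM) and 526 in shEmpty (28.1 CPM), and ratios of 1.60 in shPRAME (1.43 to 1.78) and 1.11 in shBAP1 (0.978 to 1.26). The dishevelled genes, which relay the receptor signal, lay between 0.778 (DVL1 in shBAP1) and 1.54 (DVL3 in shPRAME). DVL1 had 1432 counts in shPRAME (78.3 CPM), 682 in shBAP1 (45.9 CPM) and 1106 in shEmpty (59.0 CPM). DVL2 had 1505 (82.3 CPM), 824 (55.5 CPM) and 1276 (68.1 CPM) in that order, and DVL3 had 1476 (80.7 CPM), 951 (64.1 CPM) and 981 (52.4 CPM). All of the dishevelled genes were thus highest in shPRAME by CPM, with DVL1 and DVL2 lowest in shBAP1 and DVL3 lowest in shEmpty. Beta-catenin is controlled mainly at the protein level, which these counts do not measure.

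The TCF/LEF genes, whose products carry beta-catenin to DNA, differed between the libraries: 3 of the 4 were higher in shPRAME, where 10.2% of all measured genes were, and 1 was lower in shBAP1, where 8.56% were. LEF1 had 1358 counts in shPRAME (74.3 CPM), 213 in shBAP1 (14.3 CPM) and 1483 in shEmpty (79.1 CPM). It was 5.52-fold lower in shBAP1 (4.78 to 6.40), and the shPRAME ratio of 0.938 (0.871 to 1.01) was not told apart from no change. LEF1-AS1, whose exons overlap LEF1 on the opposite strand, had 41, 7 and 31 counts in the same order. Its part in the LEF1 counts was not tested. TCF7L2, a broadly expressed member, had 2637 counts in shPRAME (144 CPM), 404 in shBAP1 (27.2 CPM) and 1004 in shEmpty (53.6 CPM). It was highest in shPRAME, by 2.69-fold (2.50 to 2.90), and in shBAP1 it had a ratio of 0.508 (0.451 to 0.571), just inside the limit. TCF7L1, known mainly as a repressor, had 422 counts in shPRAME (23.1 CPM), 99 in shBAP1 (6.67 CPM) and 207 in shEmpty (11.0 CPM). It was 2.09-fold higher in shPRAME (1.76 to 2.48), a call that ended with a pseudocount of 1 CPM or with the whole interval beyond 2-fold, and in shBAP1 its ratio was 0.604 (0.470 to 0.771). TCF7, which is itself a reported target of the pathway, had 326 counts in shPRAME (17.8 CPM), 86 in shBAP1 (5.79 CPM) and 67 in shEmpty (3.58 CPM). It was 4.99-fold higher in shPRAME (3.82 to 6.59), with a ratio of 1.62 in shBAP1 (1.16 to 2.26).

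The make-up of the TCF/LEF family therefore differed by library. Per kilobase of exon, TCF7L2 made up 52.8% of the family level in shPRAME, 47.1% in shBAP1 and 34.5% in shEmpty. LEF1 made up 28.1% in shPRAME, 25.6% in shBAP1 and 52.7% in shEmpty, where it led. TCF7 was the smallest part in each library, at 6.86%, 10.5% and 2.42%. The summed counts of the 4 genes were 4743 in shPRAME, 802 in shBAP1 and 2761 in shEmpty, which is 1.76-fold higher in shPRAME (1.68 to 1.85) and 2.73-fold lower in shBAP1 (2.52 to 2.95). Exon lengths came from GENCODE release 29, and the isoforms present were not resolved.

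The feedback inhibitors are genes that beta-catenin signalling is known to induce and that dampen it, and most had few counts. AXIN2, widely used as a readout of the pathway, had 10 counts in shPRAME, 10 in shBAP1 and 25 in shEmpty, below the count minimum. RNF43, a ubiquitin ligase that removes frizzleds from the surface, had 4, 4 and 32 counts and was also below it. NKD2 had 3, 0 and 6 counts. All 3 had their highest count in shEmpty, the library with the most counts. After scaling, the AXIN2 ratio was 0.410 in shPRAME (0.176 to 0.884) and 0.505 in shBAP1 (0.216 to 1.09). RNF43 was at 0.128 in shPRAME (0.0329 to 0.361) and 0.158 in shBAP1 (0.0405 to 0.445). Exons of SUPT4H1 overlap RNF43 on the same strand, with 768 counts in shPRAME, 1079 in shBAP1 and 898 in shEmpty. The part of SUPT4H1 in the RNF43 counts was not tested. NKD2 was at 0.512 in shPRAME (0.0829 to 2.40), and its interval in shBAP1 reached 1.07. The AXIN2 interval in shBAP1 and the NKD2 intervals thus included no change. NKD1, which binds dishevelled, had 25 counts in shPRAME (1.37 CPM), 43 in shBAP1 (2.90 CPM) and 108 in shEmpty (5.76 CPM). It was 4.22-fold lower in shPRAME (2.71 to 6.80), and in shBAP1 its ratio was 0.503 (0.344 to 0.722), just inside the limit. ZNRF3, the relative of RNF43, was the most abundant of the 5 by count, with 496 in shPRAME (27.1 CPM), 326 in shBAP1 (22.0 CPM) and 536 in shEmpty (28.6 CPM), and had ratios of 0.948 in shPRAME (0.838 to 1.07) and 0.768 in shBAP1 (0.667 to 0.883). The shPRAME direction of ZNRF3 changed under upper-quartile scaling.

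The knockdown libraries were also set directly against each other. Of the 30 measured members, 11 were higher and 3 lower in shPRAME than in shBAP1, where the rule called 14.2% of all genes higher, 10.9% lower and 25.1% in either direction. The members called were 46.7% of those measured, with a median log2 ratio of 0.55 beside -0.06 over all measured genes. Of the called members named below, WNT16, FZD9 and NKD1 had under 50 counts in at least 1 library. All 4 TCF/LEF genes were higher in shPRAME, between 3.08-fold (TCF7, 2.42 to 3.95) and 5.30-fold (TCF7L2, 4.77 to 5.90). WNT16 was 11.5-fold higher (6.42 to 22.7), FZD9 8.66-fold (5.83 to 13.4), WNT5A 5.72-fold (5.24 to 6.24), SFRP1 4.69-fold (4.51 to 4.87) and FZD1 4.26-fold (3.89 to 4.68). LRP5 (2.94-fold) and FZD7 (2.81-fold) completed the higher members. FZD8 was 2.59-fold lower in shPRAME (1.99 to 3.40), NKD1 2.12-fold (1.26 to 3.62) and FZD5 2.07-fold (1.61 to 2.68). All 3 lower calls ended with the whole interval beyond 2-fold, and those of NKD1 and FZD5 also with a pseudocount of 1 CPM. This comparison uses the same libraries as the other two and adds no independent evidence.

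Other genes of the pathway were taken from 6 lists that hold no member. These lists were chosen with earlier results of these data known. Of 7 measured genes of Wnt secretion and the R-spondin axis, 2 were higher and 1 lower in shPRAME, and 2 were lower in shBAP1. Over all measured genes 10.2% were higher and 9.08% lower in shPRAME, and 8.56% were lower in shBAP1, so with 7 genes such counts describe single genes only. LGR4, a receptor of the R-spondins, which raise frizzled levels, had 43 counts in shPRAME, 777 in shBAP1 and 819 in shEmpty, and was 18.6-fold lower in shPRAME (13.7 to 25.9). The glypican GPC4 was 2.85-fold higher in shPRAME (2.60 to 3.11) and 2.39-fold lower in shBAP1 (2.05 to 2.80). RECK was 2.16-fold higher in shPRAME, and CTHRC1, a secreted Wnt cofactor in mice, was 2.73-fold lower in shBAP1 (2.61 to 2.84). WLS, which carries Wnt proteins to the surface, had 2291 counts in shPRAME, 1191 in shBAP1 and 1939 in shEmpty, and was called in neither comparison. Of 17 further antagonists 3 were measured. TPBG, a membrane inhibitor of Wnt signalling in zebrafish, was 3.19-fold higher in shPRAME (2.75 to 3.72) and the DKK receptor KREMEN1 2.82-fold (2.63 to 3.03), and none was called in shBAP1.

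Of 18 further destruction complex and cytoplasmic genes, 2 were higher in shPRAME (11.1%, near the 10.2% of all measured genes) and none was called in shBAP1, where 14.1% of all genes were. These were the dishevelled-binding genes DACT1, with 360 counts in shPRAME, 58 in shBAP1 and 50 in shEmpty (7.38-fold higher in shPRAME, 5.48 to 10.1), and DACT3 (2.09-fold, 1.60 to 2.75). Of 18 nuclear cofactor genes, 1 was called in shPRAME (5.56%, beside 19.3% of all genes) and 3 in shBAP1 (16.7%, near the 14.1% of all genes). BCL9L was 2.18-fold higher in shPRAME (1.99 to 2.40), and in shBAP1 the corepressor gene TLE4 was 2.17-fold higher (1.88 to 2.50), TLE2 4.13-fold lower (2.65 to 6.68) and TBL1X 2.47-fold lower (2.27 to 2.69).

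Genes reported elsewhere as beta-catenin targets were lower more often than higher in shBAP1: of 17 measured, 9 were lower and 2 higher, with a median log2 ratio of -1.04. Over all measured genes 8.56% were lower and 5.53% higher in shBAP1. In shPRAME the list had 3 higher and 4 lower genes, beside 10.2% and 9.08% of all genes, and its median log2 ratio was 0.25. CCND1, cyclin D1, had 15432 counts in shPRAME (844 CPM), 1985 in shBAP1 (134 CPM) and 10455 in shEmpty (558 CPM), and was 4.17-fold lower in shBAP1 (3.98 to 4.38). In shBAP1 L1CAM was 40.0-fold higher (31.4 to 51.7), and EPHB3 was 15.3-fold (10.7 to 22.7), NRCAM 14.3-fold (11.8 to 17.4) and EPHB2 5.19-fold lower (4.27 to 6.36). In shPRAME EPHB2 was 8.31-fold (7.71 to 8.97) and NRCAM 2.94-fold higher (2.80 to 3.09), and TNFRSF19 was 4.57-fold lower (3.87 to 5.42). MITF, the master regulator of pigment cells, had 2088 counts in shPRAME (114 CPM), 3543 in shBAP1 (239 CPM) and 5807 in shEmpty (309.9 CPM), and was 2.71-fold lower in shPRAME (2.58 to 2.85). MYC had 817, 649 and 1229 counts, with ratios of 0.681 in shPRAME (0.623 to 0.745) and 0.666 in shBAP1 (0.605 to 0.734), neither past the limit. Many of these genes also answer to other pathways, so the list is no measure of beta-catenin activity. It was chosen with earlier results of these data known, so its share called is no independent test.

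The list of planar cell polarity and Wnt-calcium genes had 20 measured, with 3 lower and none higher in shPRAME and 5 lower and 2 higher in shBAP1. The share called was 15.0% in shPRAME, below the 19.3% of all measured genes, and 35.0% in shBAP1, beside 14.1%. CELSR2, a polarity cadherin, had 45 counts in shPRAME, 727 in shBAP1 and 201 in shEmpty. It was 4.36-fold lower in shPRAME (3.14 to 6.16) and 4.57-fold higher in shBAP1 (3.90 to 5.36). The formin DAAM2 (3.15-fold) and the calcium-regulated factor NFATC2 (2.05-fold) were also lower in shPRAME. In shBAP1 NFATC1 was 7.26-fold lower (5.79 to 9.21), the receptor PTK7 7.11-fold (5.84 to 8.73) and CELSR1 3.33-fold (2.91 to 3.81).

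**Figure D4:**
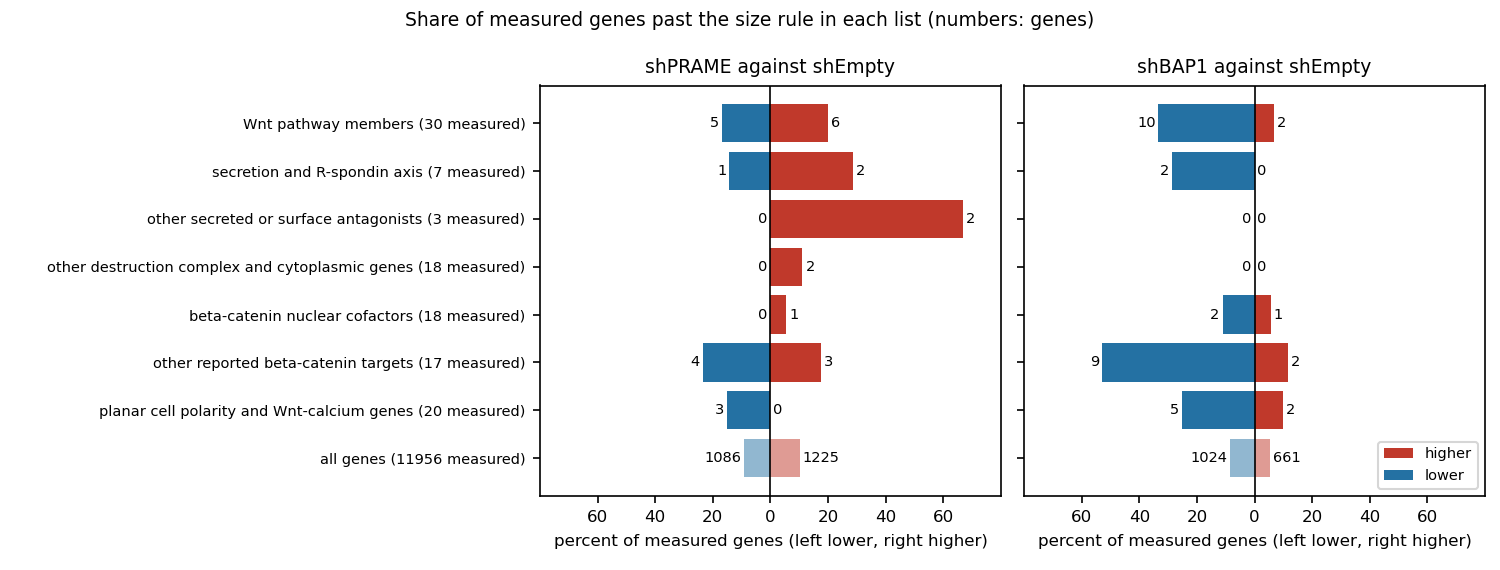
Percent of measured genes called higher (right) or lower (left) against shEmpty in shPRAME and shBAP1, for the members, 6 lists of other Wnt pathway genes and all measured genes; numbers beside the bars count genes. Among reported beta-catenin targets 9 of 17 were lower in shBAP1 and 4 of 17 in shPRAME, and of all 11956 measured genes 8.56% and 9.08% were. The lists were chosen with earlier results of these data known.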

How the data were processed

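RNA from 1 library of each of shPRAME, shBAP1 and shEmpty was analysed from whole-number read counts per gene as deposited by the authors. Per the labels' protocols, TRIzol RNA went into messenger RNA libraries built with a directional kit and read in pairs. The tools FastQC, TopHat, Cufflinks and edgeR and the build hg19 (GRCh37) are named per the submitters' processing notes. Which tool counted, with which annotation and strand setting, is not given in the sources used here, so overlapping, antisense and paralogous genes are uncertain. Every row named a gene, and no column of per-sample values was left out.

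Counts were scaled with TMM factors over the 3 libraries (edgeR 4.0.16, R 4.3.3). Ratios used no pseudocount, and a count of 0 was set to 3 in a ratio. Intervals were exact conditional binomial for ratios and exact Poisson for levels. A gene entered at a mean of 50 counts, and a call needed 2-fold and a 95% interval without 1. No replicated test was possible with 1 library a group. Members, lists and rules were chosen with earlier results of these data known. All members were named, with those of at least 30 counts in a library given their counts; list genes were the up to 4 largest calls per list, and CCND1, MITF, MYC and WLS always. Not all of these are printed. Exon lengths were merged exons of the GENCODE release 29 basic set, and promoters came from RefSeq (GRCh38.p14). The procedure was tested on simulated counts with known folds. Those counts held counting error only, with no spread between cultures, so the test says nothing about such spread. Other scalings tried were by total count, upper quartile and DESeq2 (1.42.0), beside other count minima and fold limits, and a pseudocount. Python 3.11.15, numpy 2.4.6, scipy 1.17.1, pandas 2.3.3 and matplotlib 3.10.9 were used.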

Additional observations from a re-analysis of the deposited data

How the results depend on the processing

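No called member changed direction under total-count, upper-quartile or DESeq2 scaling or a pseudocount of 1 CPM. The scalings left the number of members called within 1.5 times, though by total count the median of all measured genes moved by 0.12 (log2) in shBAP1 against shEmpty, and the members' median there was -0.21 under it, against -0.33 with TMM. In shPRAME against shEmpty, 17 members were called, 8 of them lower, with a count minimum of 10 and also with none, since low-count members such as WNT9A and RNF43 then enter. With a minimum of 200 there were 5, of which 1 was lower. With a fold limit of 1.5 there were 17, 11 of them higher. With one of 3 there were 6, 3 in each direction. The share of all genes called moved too. A minimum of 10 called 22.9% of all genes beside 44.7% of the members, and no minimum 15.5% beside 32.7%. A minimum of 200 called 16.0% beside 5 of 20 members. The fold limit of 1.5 called 41.0% beside 56.7%, and that of 3 called 8.29% beside 6 of 30 members. Member counts under different settings are therefore not comparable without the share of all genes. In shBAP1 against shEmpty, a minimum of 200 left 1 higher member, as did a whole interval beyond 2-fold. A fold limit of 3 left 6, none (0) higher and 6 lower. In either direction these settings called 8 of 20, 9 of 30 and 6 of 30 members, in that order. They called 10.5%, 9.18% and 6.51% of all genes. In shPRAME against shBAP1, a minimum of 200 left 8 and a fold limit of 3 left 9, with 0 lower in both. A fold limit of 1.5 gave 7 lower, a whole interval beyond 2-fold 0 lower and the pseudocount 1 lower. For shPRAME against shBAP1 the shares of all genes under these settings are not printed here. These member counts therefore cannot be compared between settings or with the main rule. No paired analysis was possible because each group has 1 library and the labels give no replicate numbers. Depth limits ligands and feedback inhibitors most: 22 of the 52 members were below the count minimum.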

Other observations

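Some pathway genes with too few counts to be measured, picked here because of those counts, had most of their counts in 1 or 2 libraries. GPC3, a glypican that binds Wnt proteins, had 81 counts in shPRAME, 0 in shBAP1 and 2 in shEmpty. RSPO2, an R-spondin, had 31 counts in shPRAME and 0 in the other two libraries. TRABD2A, a membrane protease that inactivates Wnt proteins, had 87 counts in shPRAME, 2 in shBAP1 and 47 in shEmpty. VANGL2, a core polarity gene, had 2 counts in shPRAME, 60 in shBAP1 and 13 in shEmpty, and the reported beta-catenin target CLDN1 had 1, 46 and 3. BMP4 had 2, 5 and 30 counts in that order. With 1 library a group these counts have no replicate check.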
